A study of Rattus norvegicus with 8 samples.

Results

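The HOX genes are homeobox transcription factors that give cells along the body axis their regional identity. In mammals they lie in 4 clusters, HOXA to HOXD, and are numbered by paralog group, so that low numbers are used toward the head and high numbers toward the tail and the ends of the limbs. Their proteins bind DNA together with the TALE cofactors of the PBX and MEIS families, retinoic acid switches on the low-numbered genes in the embryo, and Polycomb proteins keep the unused genes silent. Adult smooth muscle cells and fibroblasts are known to keep part of the HOX pattern of the region they came from. The common carotid artery derives from the third pharyngeal arch, where low-numbered HOX genes are used.

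All table rows whose symbol is Hoxa, Hoxb, Hoxc or Hoxd followed by a number from 1 to 13 were taken, which gave 35 of the 37209 genes. They comprised 10 HOXA, 10 HOXB, 8 HOXC and 7 HOXD genes. By paralog group, 11 were anterior (1 to 4), 10 central (5 to 8) and 14 posterior (9 to 13). All 35 matched a symbol of the RefSeq rat annotation, and Hoxa4, Hoxc11, Hoxd8 and Hoxd11 were not analysed here.

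The samples were carotid arteries of male Sprague-Dawley rats weighing 400 g on average. The injured group held 4 left carotid arteries taken 2 weeks after a balloon catheter had been used to damage the intima, and the control group held 4 undamaged right carotid arteries, the rats' own contralateral vessels. The rats were anesthetised with isoflurane, and no transgene or sham operation is named for either group, so side and operation cannot be told apart from injury. Whole-artery RNA was sequenced and deposited as counts per gene, with 13470754 to 15276952 counts in the control and 11459632 to 16658089 in the injured arteries. Levels are given as counts per 1000000 (CPM) scaled by trimmed mean of M-values (TMM), and 3 counts correspond to 0.168 to 0.246 CPM. Transcript lengths were not used here, so levels are compared between arteries and not between genes.

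Several features of the libraries bear on the values below. Control 4 correlated at 0.83 to 0.852 with the other controls, which correlated at 0.976 to 0.978 with each other. The 12 sympathetic neuron markers, among them Th and Dbh, the enzymes of noradrenaline synthesis, summed to 12840 CPM in control 4 and 3925 CPM in injured 3, against 7.46 to 13.3 CPM in the other controls and 31.3 to 269 CPM in the other injured arteries. The smooth muscle markers summed to 17790 to 51650 CPM in control and 10740 to 16980 CPM in injured arteries, so the labelled tissue carried its defining genes in every library. The submitters' extraction text names prefrontal cortex, but cortical markers were nearly absent, with Emx1 at 0 in every library, Tbr1 at 2 counts or fewer and Slc17a7 at 8 or fewer. The 10 brain markers together summed to 8.14 to 33.2 CPM in control and 14.6 to 201 CPM in injured arteries, highest in control 4 and injured 3. In whole arteries, a smaller number of cells of a type and less RNA per cell cannot be told apart.

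The HOX genes that reached 10 counts in every uninjured carotid artery were anterior or central genes of HOXB and HOXD. A gene was called expressed with at least 10 counts in each of the 4 arteries of a group, sparse with more than 3 counts in at least 1 of them, and at the floor with 3 or fewer in all. In control arteries 6 HOX genes were expressed, 9 were sparse and 20 were at the floor. The 6 were Hoxb2, Hoxb3, Hoxb4, Hoxb5, Hoxd3 and Hoxd4, of which 5 are anterior and 1 is central. No HOXA, HOXC or posterior gene reached that level in every control. The anterior genes Hoxa2 and Hoxa3 lay near it, with 7 to 13 and 6 to 11 counts in the controls. Hoxc4 had 451 counts in control 4 and 5 or fewer in the other controls.

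In injured arteries 9 HOX genes were expressed, 7 were sparse and 19 were at the floor. The same 6 genes were joined by Hoxb6, Hoxb7 and Hoxd9, which were sparse in control arteries. A total of 18 HOX genes were at the floor in both groups. Among them 14 had 0 counts in all 8 libraries, which allows up to 3 counts in each, namely Hoxa5, Hoxa6, Hoxa7, Hoxa9, Hoxa10, Hoxa11, Hoxa13, Hoxb1, Hoxb13, Hoxc10, Hoxc12, Hoxc13, Hoxd12 and Hoxd13. Over the whole data set 37.0% of genes had 0 counts in every library.

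**Figure D1:**
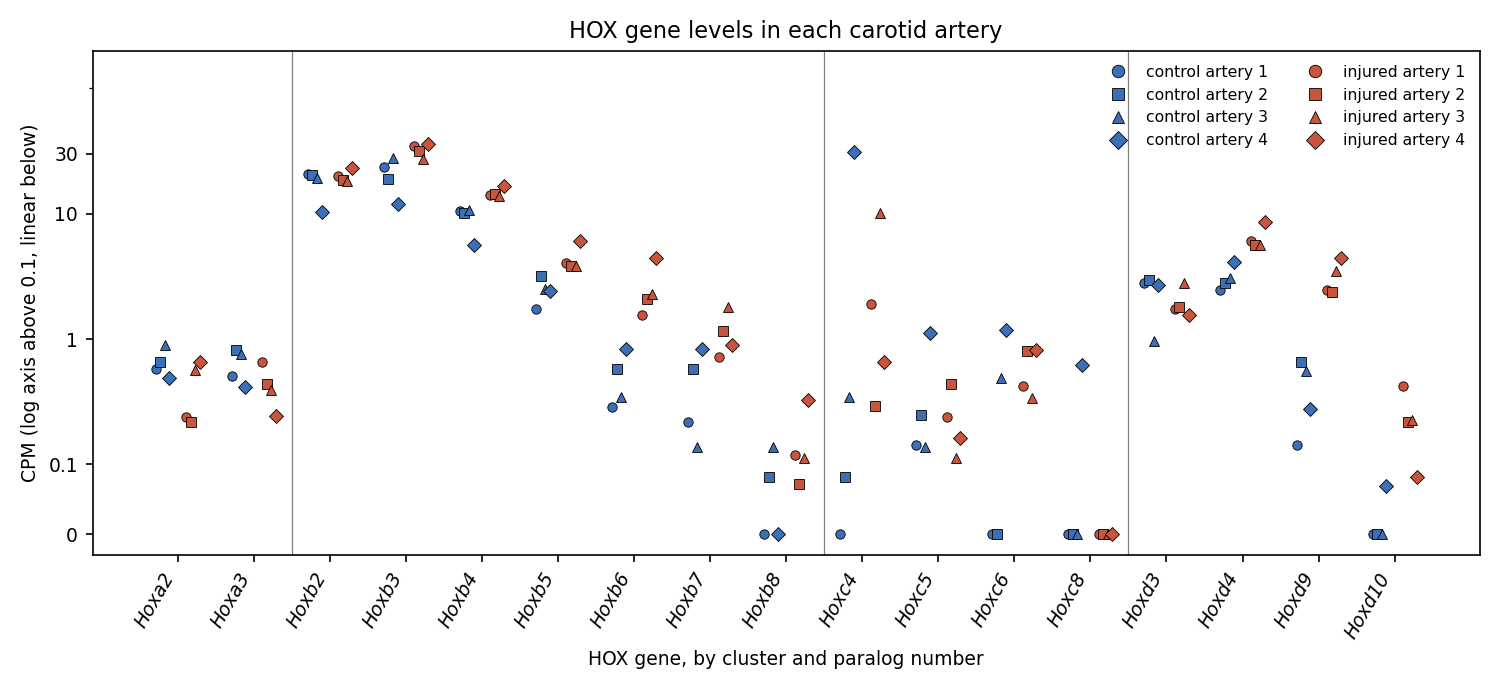
Level of each HOX gene with more than 3 counts in at least 1 library, in CPM on an axis that is logarithmic above 0.1 and linear below, with 1 point for each control (blue) and injured (red) artery, a marker shape for each artery number and vertical lines between the HOXA, HOXB, HOXC and HOXD genes. Hoxb2, Hoxb3 and Hoxb4 each had 81 or more counts in all 8 arteries. Hoxd9 stood at 0.144 to 0.656 CPM in control and 2.39 to 4.42 CPM in injured arteries, and Hoxc4 was highest in control 4.

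After injury, 3 HOX genes rose and none was called lower, by edgeR or by DESeq2. They were Hoxb6 (central), Hoxd4 (anterior) and Hoxd9 (posterior), called at a false discovery rate (FDR) under 0.05 and a fold change above 2 in edgeR's quasi-likelihood test. Of the 35 genes, 10 had enough counts to be tested, 8 of these with a positive and 2 with a negative log2 fold change, and 25 were not tested. Over all 14359 genes tested in edgeR, 10.9% were called in either direction and 8.31% were called higher. DESeq2 called 13.1% of 16469 genes in either direction. At an unadjusted edgeR p under 0.05 there were 7 of the 10 HOX genes, against 31.1% of all genes tested. The median log2 fold change was 0.76 over the 10 HOX genes and -0.06 over all genes tested. Hoxd9 reached the filter level in no control library and Hoxb6, Hoxb7 and Hoxc4 in 1, so these 4 entered mainly through the injured arteries or single libraries, and the counts and medians over the tested genes are a description only.

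The HOXD genes lie on rat chromosome 3, and 3 of them carried enough counts to be tested, of which Hoxd4 and Hoxd9 rose and Hoxd3 was not called. Their RefSeq promoters in the GRCr8 assembly, from 250 bases before to 50 bases after the annotated start, are shown because neighbouring genes of the same cluster gave different results. They lie on the plus strand at chr3:80045876-80046175 for Hoxd3, chr3:80021636-80021935 for Hoxd4 and chr3:80007756-80008055 for Hoxd9. Each is written 5′ to 3′ with capitals marking AGGTCA, the core motif of nuclear receptors such as the retinoic acid receptors, and CCAAT, a common promoter element, on either strand (TGACCT and ATTGG).
Hoxd3: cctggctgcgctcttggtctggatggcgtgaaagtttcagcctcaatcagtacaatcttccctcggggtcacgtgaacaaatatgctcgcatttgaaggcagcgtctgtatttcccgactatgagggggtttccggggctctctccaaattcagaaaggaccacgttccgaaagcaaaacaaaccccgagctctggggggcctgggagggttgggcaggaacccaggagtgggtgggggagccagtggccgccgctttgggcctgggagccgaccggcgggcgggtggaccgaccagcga
Hoxd4: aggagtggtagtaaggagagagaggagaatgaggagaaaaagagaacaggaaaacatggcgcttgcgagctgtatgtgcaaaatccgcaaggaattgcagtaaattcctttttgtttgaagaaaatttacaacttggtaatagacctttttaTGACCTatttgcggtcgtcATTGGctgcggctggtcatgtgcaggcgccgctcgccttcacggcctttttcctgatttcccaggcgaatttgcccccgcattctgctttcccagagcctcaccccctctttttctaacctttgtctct
Hoxd9: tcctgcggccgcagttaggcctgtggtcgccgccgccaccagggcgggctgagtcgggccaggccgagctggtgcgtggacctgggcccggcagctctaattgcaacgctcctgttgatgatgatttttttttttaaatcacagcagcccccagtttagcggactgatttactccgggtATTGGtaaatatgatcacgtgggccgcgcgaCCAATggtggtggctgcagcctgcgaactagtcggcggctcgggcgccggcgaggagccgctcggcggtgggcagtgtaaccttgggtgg
Hoxd4 held 1 AGGTCA and 1 CCAAT, Hoxd9 held 2 CCAAT, and Hoxd3 held neither, with no overlap between the motifs. AGGTCA was present in 16.2% and CCAAT in 37.5% of the 33469 promoters of that length in the RefSeq table. Of the 17 HOX genes with an entry there, 3 held AGGTCA and 13 held CCAAT. These 17 promoters were rich in CpG, with a median of 20 CpG and 59.8% GC against 7 CpG and 51.7% GC over all promoters.

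Hoxd9, the first posterior gene of the HOXD cluster and known for its role in limb and lumbar patterning, had the highest log2 fold change of the 10 tested with all 8 arteries in the fit, while without control 4 that of Hoxc4 was higher (4.40 against 2.80). It had 2, 8, 8 and 4 counts in control 1 to 4 and 41, 33, 62 and 54 counts in injured 1 to 4. In CPM these were 0.144, 0.656, 0.554 and 0.278 against 2.45, 2.39, 3.48 and 4.42. Every injured artery lay above every control, and the controls were near the level of 3 counts. The mean went from 0.408 ± 0.238 to 3.19 ± 0.961 CPM (SD, n = 4 each), a log2 fold change of 2.95 (SE 0.46) or 7.71-fold, with an edgeR FDR of 0.00451. The exact two-sided permutation test over the 70 relabellings gave p = 0.0286, the smallest that 4 against 4 arteries allow. It was run only for the HOX genes at edgeR FDR under 0.05 (Hoxb6, Hoxd4 and Hoxd9). Groups that do not overlap always give this p, so it adds no support to these calls. No annotated gene overlapped Hoxd9.

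Its neighbour Hoxd10, a posterior gene active in limb and spinal cord, was at 0, 0, 0 and 1 counts in control and 7, 3, 4 and 1 counts in injured arteries and was not tested. The farther posterior genes Hoxd12 and Hoxd13 had 0 counts everywhere. Hoxd9 and Hoxd10 together took 2.67% (exact 95% interval 0.325 to 9.30), 10.3% (4.53 to 19.2), 12.1% (5.38 to 22.5) and 4.85% (1.595 to 11.0) of the HOXD counts in control 1 to 4. They took 27.0% (20.6 to 34.1), 26.1% (19.0 to 34.2), 30.3% (24.3 to 36.8) and 30.6% (23.9 to 37.8) in injured 1 to 4. The shares of the groups did not overlap, with means of 7.48% ± 4.45 and 28.5% ± 2.28 (SD, n = 4 each), and the Clopper-Pearson intervals cover counting error only. Most of the Hoxd9 and Hoxd10 counts were Hoxd9, so these shares restate its rise and are no separate support.

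Hoxd4, an anterior gene of hindbrain and cervical patterning, had 34, 34, 44 and 59 counts in control and 101, 77, 100 and 106 counts in injured arteries. The levels were 2.45, 2.79, 3.05 and 4.10 CPM in control 1 to 4 and 6.04, 5.59, 5.62 and 8.67 CPM in injured 1 to 4. All 4 injured arteries were above control 4, the highest control. The mean went from 3.10 ± 0.713 to 6.48 ± 1.48 CPM (SD, n = 4 each), a log2 fold change of 1.06 (SE 0.25) or 2.09-fold, with an edgeR FDR of 0.0217 and an exact permutation p of 0.0286. This call was lost when control 1, control 2, control 3 or injured 4 was left out, with edgeR FDR of 0.0574, 0.0653, 0.06 and 0.0615. Hoxd4 overlaps Mir10b and a long noncoding RNA in the annotation, and reads of overlapping genes could not be told apart because strand is not given in the sources used here.

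Hoxd3, a paralog of group 3 linked to cell adhesion, was not called. Its levels were 2.81, 2.95, 0.970 and 2.71 CPM in control 1 to 4 and 1.74, 1.81, 2.81 and 1.56 CPM in injured 1 to 4. The groups overlapped, and control 3 was the lowest of all 8 arteries. The log2 fold change was -0.25 (SE 0.38) with an edgeR FDR of 0.699. Whether the changes of Hoxd3 and of Hoxd4 or Hoxd9 differed was not tested. Hoxd1 had 2 counts in injured 3 and 0 elsewhere.

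**Figure D2:**
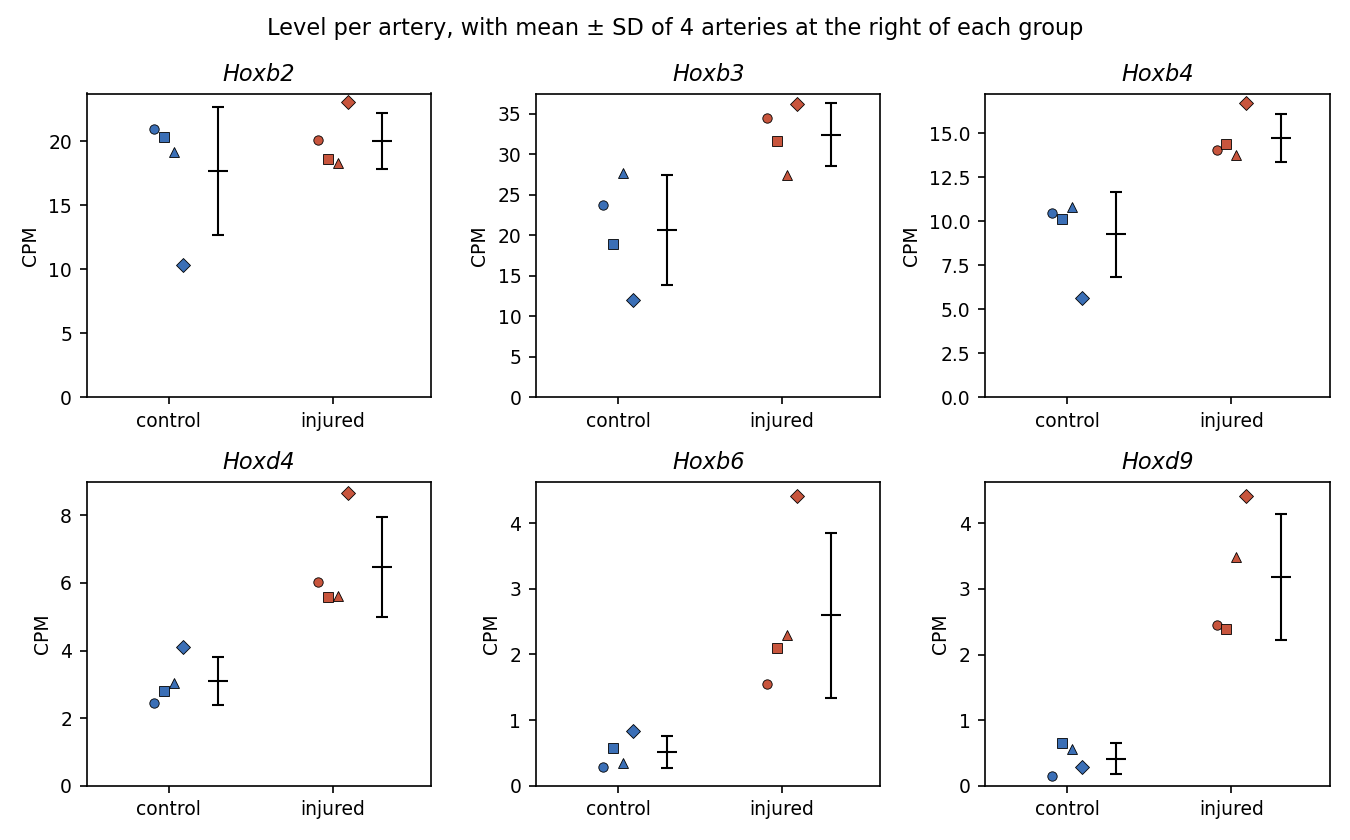
CPM of Hoxb2, Hoxb3, Hoxb4, Hoxd4, Hoxb6 and Hoxd9 on axes from 0, with points for the 4 control (blue) and 4 injured (red) arteries, a marker shape for each artery number (circle 1, square 2, triangle 3, diamond 4) and a bar with whiskers for the group mean ± SD. For Hoxb4, Hoxb6, Hoxd4 and Hoxd9 every injured point lay above every control point, while the points of Hoxb2 and Hoxb3 overlapped between groups.

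HOXB carried most HOX counts in every artery except control 4. The summed HOXB level was 51.0 ± 13.01 CPM (range 32.0 to 60.8) in control and 75.5 ± 8.72 CPM (67.4 to 87.7) in injured arteries (SD, n = 4 each). The ranges did not overlap, and control 4 was the lowest. These sums were dominated by Hoxb2, Hoxb3 and Hoxb4, none of which was called.

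Hoxb2, which patterns the hindbrain and its neural crest, had 291, 248, 276 and 148 counts in control and 335, 256, 325 and 282 counts in injured arteries. These were 21.0, 20.3, 19.1 and 10.3 CPM in control 1 to 4 and 20.04, 18.6, 18.3 and 23.1 CPM in injured 1 to 4. Control 4 lay far below the other 7 arteries, which overlapped. The log2 fold change was 0.18 (SE 0.23) with an edgeR FDR of 0.645, and without control 4 it was -0.02.

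Hoxb3, a group 3 gene of the pharyngeal arches, stood at 23.8, 19.0, 27.7 and 11.95 CPM in control 1 to 4 and 34.5, 31.7, 27.4 and 36.3 CPM in injured 1 to 4. The groups overlapped at control 3 and injured 3. The log2 fold change was 0.66 (SE 0.25), with an unadjusted p of 0.0294 and an FDR of 0.114 in edgeR. A noncoding RNA overlaps Hoxb3 in the annotation.

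Hoxb4, known from blood stem cell growth and cervical patterning, stood at 10.4, 10.1, 10.8 and 5.63 CPM in control 1 to 4 and 14.1, 14.4, 13.8 and 16.7 CPM in injured 1 to 4. The groups did not overlap. The log2 fold change was 0.67 (SE 0.22) with an edgeR FDR of 0.0772, and without control 4 it was 0.49 with an FDR of 0.0318.

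Hoxb5, a central gene known from enteric neurons and vascular precursors, had 24, 39, 36 and 35 counts in control and 68, 53, 68 and 74 counts in injured arteries. The levels were 1.73, 3.20, 2.495 and 2.43 CPM against 4.07, 3.85, 3.82 and 6.06 CPM. The groups did not overlap, and the log2 fold change was 0.85 (SE 0.26) with an edgeR FDR of 0.0628, short of the threshold.

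Hoxb6, the next central gene of the cluster and known from lateral plate mesoderm, had 4, 7, 5 and 12 counts in control and 26, 29, 41 and 54 counts in injured arteries. In CPM these were 0.288, 0.574, 0.347 and 0.834 against 1.56, 2.10, 2.30 and 4.42. The lowest injured artery lay above control 4, the highest control. The mean went from 0.511 ± 0.248 to 2.60 ± 1.26 CPM (SD, n = 4 each), a log2 fold change of 2.32 (SE 0.47) or 4.99-fold, with an edgeR FDR of 0.0125 and an exact permutation p of 0.0286. Hoxb5 and Hoxb6 share the overlapping noncoding RNA Hoxb5os, whose reads could not be separated from theirs.

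Hoxb7, a central gene known for growth control in mesenchymal cells, had 3, 7, 2 and 12 counts in control and 12, 16, 32 and 11 counts in injured arteries. Control 4 overlapped the injured group. The log2 fold change was 1.37 (SE 0.57) with an edgeR FDR of 0.147. Without control 4 it was 1.89 with an FDR of 0.0451, which made 4 called HOX genes against 12.3% of all genes called higher in that fit. Hoxb8 had at most 2 counts in control and 4 in injured arteries, and Hoxb9 at most 1.

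Hoxb6 to Hoxb9 took 0.878% (0.354 to 1.80), 2.29% (1.29 to 3.74), 1.14% (0.548 to 2.09) and 5.22% (3.37 to 7.66) of the HOXB counts in control 1 to 4. They took 3.19% (2.29 to 4.32), 4.65% (3.42 to 6.15), 6.25% (4.94 to 7.77) and 6.44% (5.04 to 8.08) in injured 1 to 4, with exact 95% intervals in parentheses. The groups overlapped through control 4, whose share exceeded that of injured 1 and 2. The means were 2.38% ± 1.99 and 5.13% ± 1.52 (SD, n = 4 each). The HOXB shares thus overlapped between groups, while the HOXD shares did not. With Hoxb5 included the HOXB shares were 3.89% to 12.8% in control and 8.61% to 13.3% in injured arteries. The shares hold the counts of the called genes Hoxb6 and Hoxd9, so they restate those calls.

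**Figure D3:**
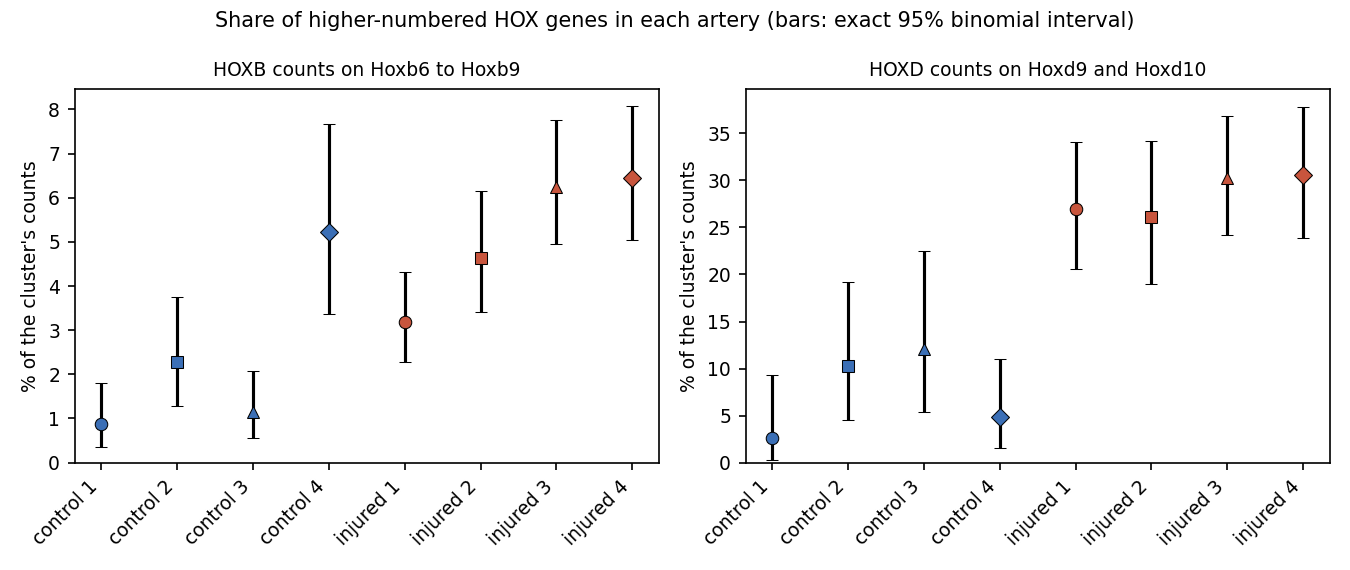
Percent of HOXB counts on Hoxb6 to Hoxb9 and percent of HOXD counts on Hoxd9 and Hoxd10 in each artery, with exact 95% intervals as bars. The HOXD shares were 2.67% to 12.1% in control and 26.1% to 30.6% in injured arteries, while the HOXB share of control 4 lay within the injured range.

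By position class the same values gave sums of 62.3 ± 4.34 CPM in control and 79.8 ± 6.13 CPM in injured arteries for anterior genes, which include Hoxc4. Central genes summed to 4.45 ± 1.95 and 9.17 ± 2.42 CPM, and posterior genes to 0.460 ± 0.236 and 3.44 ± 0.845 CPM (SD, n = 4 each). In all 3 classes the injured range lay above the control range. The central ranges nearly met, at 2.38 to 7.02 CPM in control and 7.12 to 12.7 CPM in injured arteries. The anterior and central sums hold the called genes Hoxd4 and Hoxb6. Posterior genes ran from 0.144 to 0.656 CPM in control and from 2.61 to 4.50 CPM in injured arteries, nearly all of it Hoxd9. Among single genes tested, 5 HOX genes had every injured artery above every control (Hoxb4, Hoxb5, Hoxb6, Hoxd4 and Hoxd9), against 14.2% of all genes tested. Hoxb6 and Hoxd9 passed the count filter mainly through the injured arteries, so this count is a description only.

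**Figure D4:**
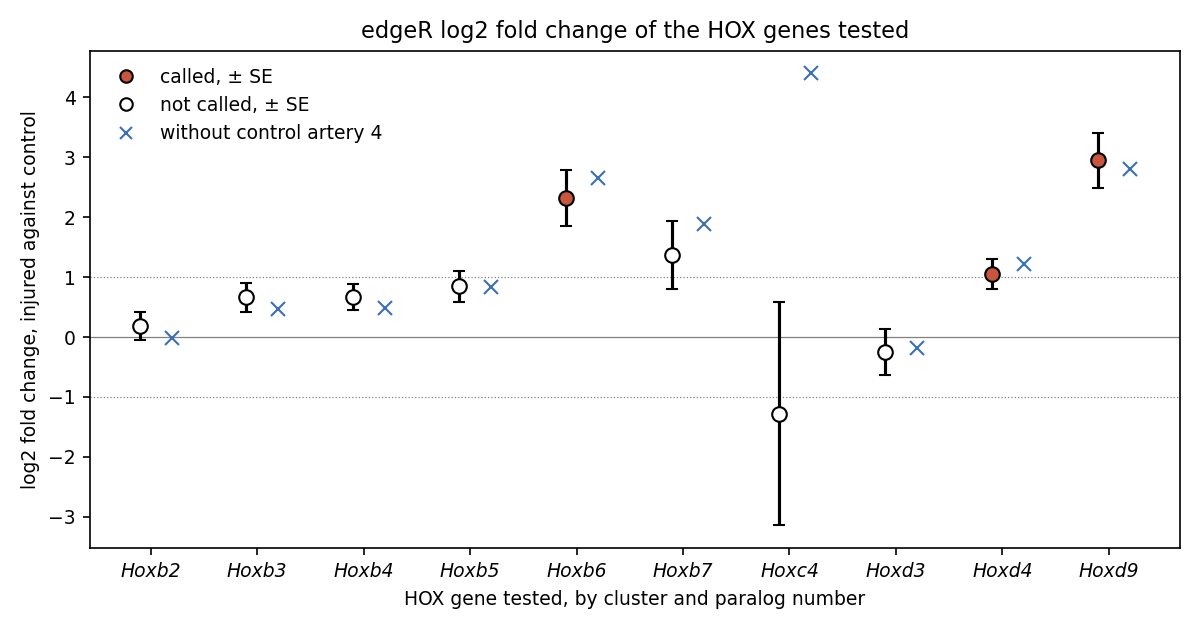
Log2 fold change (injured over control) of the 10 tested HOX genes from edgeR's quasi-likelihood fit, with bars of 1 standard error, filled circles for called genes, crosses for the fit without control 4 and dotted lines at a fold change of 2 in either direction. Hoxb6 (2.32), Hoxd4 (1.06) and Hoxd9 (2.95) were called, and Hoxc4 had the widest bar (SE 1.86) and moved from -1.28 to 4.40 without control 4.

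HOXC depended on single libraries. Its sum was 8.94 ± 16.9 CPM in control (range 0.144 to 34.3) and 4.09 ± 4.34 CPM in injured arteries (1.52 to 10.6), so the spread exceeded the difference. Hoxc4, an anterior gene also active in lymphocytes and nerve tissue, accounted for most of it with 0, 1, 5 and 451 counts in control and 32, 4, 180 and 8 counts in injured arteries. Control 4 and injured 3 stood apart from the other 6 libraries. Hoxc4 had the most negative log2 fold change of the tested HOX genes, -1.28 (SE 1.86) with an edgeR FDR of 0.681. Without control 4 the sign turned, to 4.40 with an FDR of 0.0588.

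The 4 arteries with the most Hoxc4 were, in order, control 4, injured 3, injured 1 and injured 4, the same order as for the sympathetic neuron sum, while the order of the other 4 arteries, all at 5 counts of Hoxc4 or fewer, differed between the measures. Hoxc4 stood at 31.3 CPM where the sympathetic sum was 12840, at 10.1 where it was 3925, at 1.91 where it was 269 and at 0.655 where it was 49.3. Per 1000 CPM of the sympathetic sum this was 2.44 CPM of Hoxc4 in control 4 and 2.58 in injured 3, but 7.11, 9.26 and 13.3 in injured 1, 2 and 4 and 0, 11.0 and 26.0 in control 1 to 3, where both levels were far lower. Within the list, Th had 14315 counts and Dbh 48101 in control 4, and 3795 and 6696 in injured 3, while Npy had at most 1 count in any library. Of the sympathetic markers 6 were tested and none was called in edgeR, with 0 at an unadjusted p under 0.05 and 0 called by DESeq2. Hoxc5, Hoxc6 and Hoxc8 were also highest in control 4, at 16, 17 and 9 counts, and all 3 were sparse in control arteries. In injured 3 they had 2, 6 and 0 counts, no more than in the other injured arteries. Hoxc4, Hoxc5 and Hoxc6 overlap in the annotation, so reads could be shared among them.

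**Figure D5:**
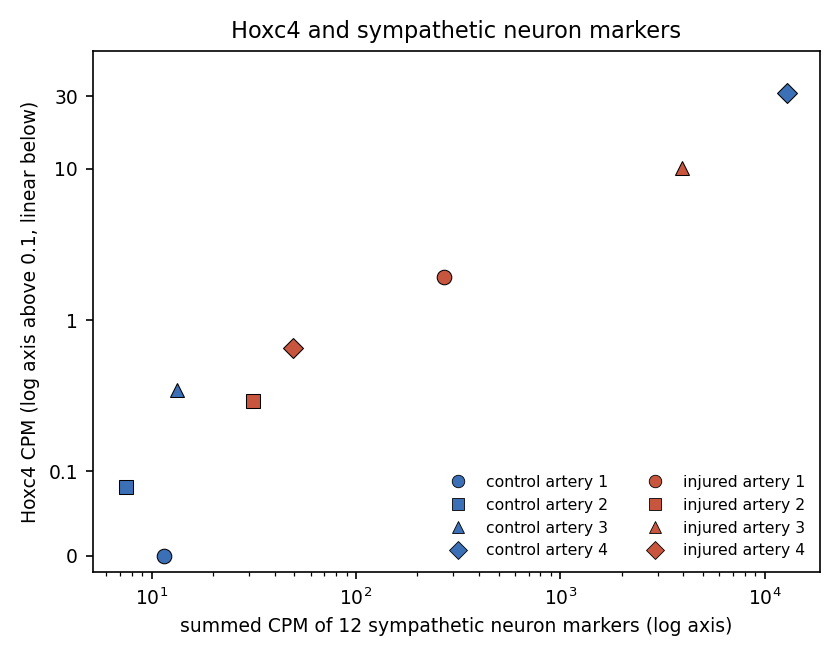
Hoxc4 CPM, on an axis logarithmic above 0.1 and linear below, against the summed CPM of the 12 sympathetic neuron markers on a log axis, with 1 point for each of the 8 arteries. Control 4 (31.3 and 12840 CPM) and injured 3 (10.1 and 3925 CPM) lay at the upper right, apart from the rest.

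HOXA had few counts in both groups. Hoxa3 overlaps Hoxa4, Hoxa5, Hoxa6 and Hoxaas3 in the annotation, so reads there could be shared or left uncounted. The low counts of Hoxa3, Hoxa5 and Hoxa6 therefore do not show that these genes were silent. Hoxa2, which patterns the second arch, had 8, 8, 13 and 7 counts in control and 4, 3, 10 and 8 counts in injured arteries. Hoxa3, the group 3 gene needed for the carotid body, had 7, 10, 11 and 6 counts against 11, 6, 7 and 3. Both were sparse and overlapped between groups, and neither was tested. The HOXA sum was 1.35 ± 0.366 CPM in control and 0.872 ± 0.150 CPM in injured arteries (SD, n = 4 each).

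Of 100 genes in 5 lists that work with or beside HOX genes, 99 had a row, 70 were tested and 9 were called, 5 higher and 4 lower after injury, beside the 10.9% called over all genes tested. The TALE cofactors, which bind DNA with HOX proteins, gave 0 calls among 8 tested, with 6 at an unadjusted edgeR p under 0.05 (31.1% of all genes tested) and 0 called by DESeq2. Their median log2 fold change was -0.09. Meis1, a MEIS cofactor, had -0.52 with an edgeR FDR of 0.0437 and did not pass the fold threshold.

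In the retinoic acid list 1 gene rose and 2 fell among 14 tested, with a median log2 fold change of 0.10. Rara, a retinoic acid receptor, rose from 38.5 ± 5.41 to 95.1 ± 12.4 CPM (log2 fold change 1.31, SE 0.14, edgeR FDR 0.00095). Rarb, another receptor and itself a retinoic acid target, fell from 20.8 ± 6.23 to 9.94 ± 1.37 CPM (log2 fold change -1.07, SE 0.23, edgeR FDR 0.0177). This call was lost without control 1 (log2 fold change -0.87), injured 2 or injured 4 (edgeR FDR 0.0618 and 0.0616). The Rarb call was also lost with library totals only (log2 fold change -0.87). In edgeR's test against a fold change of 2, neither Rara nor Rarb was called. Cyp26b1, which degrades retinoic acid, fell from 38.8 ± 20.7 to 6.90 ± 0.474 CPM (log2 fold change -2.49, SE 0.38, edgeR FDR 0.00374).

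In the Polycomb and Trithorax list 1 of 20 tested genes was called, with a median log2 fold change of 0.20. It was Ezh2, the methyltransferase of a Polycomb repressive complex and also a gene of dividing cells, which rose from 6.83 ± 1.65 to 21.9 ± 2.77 CPM (log2 fold change 1.68, SE 0.22, edgeR FDR 0.00183). Of the 12 ParaHox and HOX-flanking genes 8 had 0 counts in every library, 3 were tested and 1 rose. That gene was Meox1, a somite homeobox gene also known from fibroblast activation, at 1.12 ± 0.623 CPM in control and 8.35 ± 2.56 CPM in injured arteries (log2 fold change 2.89, SE 0.50, edgeR FDR 0.00666).

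Among 25 tested transcription factors of the pharyngeal arches and regional mesenchyme 2 rose and 2 fell, with a median log2 fold change of -0.41. Shox2, a limb and heart homeobox gene, rose from 0.698 ± 0.246 to 5.37 ± 1.90 CPM (log2 fold change 2.93, SE 0.40, edgeR FDR 0.00237), and Tbx15, a T-box gene of limb and trunk mesenchyme, rose by 1.80 on the log2 scale (edgeR FDR 0.0440). Dlx2, an arch homeobox gene, and Twist2, a mesenchymal helix-loop-helix factor, fell by 1.25 and 1.40 on the log2 scale (edgeR FDR 0.0124 and 0.0361). The call of Dlx2 was lost with the artery number as a block (edgeR FDR 0.0640). The call of Twist2 was lost with that block and without control 1, 2 or 3 or injured 2, 3 or 4 (edgeR FDR 0.0726 to 0.107). It was also lost with upper-quartile factors and with library totals only (edgeR FDR 0.0533 and 0.0536). The call of Tbx15 was lost with that block, with no count filter and without control 2 or 3 or any 1 injured artery (edgeR FDR 0.0739 to 0.116).

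Markers of other cell types moved with the injury. Macrophage markers rose in 8 of 9 tested, and their sum went from 186 to 281 CPM in control to 1709 to 2583 CPM in injured arteries. Skeletal muscle markers rose in 8 of 10 tested, with sums of 86.9 to 261 CPM in control arteries and of 835, 474, 337 and 1270 CPM in injured 1 to 4. Among the injured arteries, injured 4 was highest and injured 3 lowest for skeletal muscle. Of the tested HOX genes, Hoxb2 to Hoxb6, Hoxd4 and Hoxd9 were highest in injured 4. Hoxb7, Hoxc4 and Hoxd3 were highest in injured 3. Whether these orders are linked was not tested. Cartilage markers rose in 3 and fell in 1 of 7 tested, with sums of 17.9 to 47.2 and 114 to 557 CPM.

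Smooth muscle markers fell in 6 of 10 tested. Fibroblast markers rose in 1 and fell in 2 of 8, with overlapping sums of 10580 to 31690 and 15840 to 25860 CPM, and endothelial markers rose in 3 and fell in 1 of 10. T cell markers rose in 2 of 7, no B cell marker was tested by edgeR while DESeq2 called 2, and edgeR called 0 of 8 Schwann cell, 0 of 8 adipocyte and 0 of 2 brain markers, with 0, 2 and 1 at an unadjusted p under 0.05 and 0, 1 and 0 called by DESeq2. Of the thyroid and parathyroid markers 1 of 2 tested rose and 1 fell. The part of these cell types in the HOX changes was not tested.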

How the data were processed

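RNA of 4 injured and 4 control rat carotid arteries had been sequenced from Illumina libraries. The deposited values were raw counts per gene made by the authors, with HISAT2 2.0.4 named in the submitters' processing notes. The counting tool, genome build and strand setting are not given in the sources used here. The 37209 genes were filtered with filterByExpr of edgeR 4.0.16 in R 4.3.3, and the 14359 that passed were fitted. The fit used TMM and the quasi-likelihood test, injured against control, with Benjamini-Hochberg adjustment over the genes fitted. Genes were called at FDR under 0.05 and fold change above 2, the criteria of the study's methods. DESeq2 1.42.0 was an alternative. CPM used TMM-scaled library sizes. Exact two-sided permutation tests took log2-transformed CPM (prior count 2) and were run only for HOX genes at edgeR FDR under 0.05. Scripts were tested on simulated data with known changes.

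The HOX members and gene lists were chosen with earlier results of these data known. Every tested HOX gene and every called gene of the 5 pathway lists was named, and marker lists were given as counts and sums. Cluster neighbours, promoters and the fit without control 4 and injured 3 were chosen after seeing the data. The shares within HOXB and HOXD were not among the planned results. The labels do not say whether same-numbered arteries came from 1 rat. Deviations from the group means of same-numbered arteries correlated at 0.301, 0.45, -0.52 and -0.416 over 14359 genes. These values cannot decide the pairing, because control 4 and injured 3 stood apart from their groups in sympathetic neuron markers. The main fit did not pair the arteries, and results with the artery number as a block are given below. P-values measure the spread between these arteries. Sequences came from RefSeq (GRCr8). The depth of 11459632 to 16658089 counts sets the floor of 3 counts, which covers counting error only. Some single genes are not reported here.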

Additional observations from a re-analysis of the deposited data

Results flagged for a closer look

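Among 20 groups of 4 arteries (10 tested HOX genes, control and injured), 6 had an artery whose gap to its nearest neighbour took more of the group's range than Dixon's 95% limit allows, where chance flags about 1 in 20. Control 4 was lowest for Hoxb4 (5.63 against 10.1 CPM, gap ratio 0.861) and highest for Hoxc4 (31.3 against 0.347 CPM, gap ratio 0.989). Injured 3 was highest for Hoxc4 (10.1 against 1.91 CPM, gap ratio 0.835). Control 4 and injured 3 also had the highest sympathetic neuron sums, 12840 and 3925 CPM. Injured 4 was highest for Hoxb5 (6.06 against 4.07 CPM, gap ratio 0.889) and for Hoxd4 (8.67 against 6.04 CPM, gap ratio 0.853), and it had the highest skeletal muscle sum, 1270 CPM. Control 3 was lowest for Hoxd3 (0.970 against 2.71 CPM, gap ratio 0.878). The part of the other cell types in these values was not tested.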

How the results depend on the processing

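The 3 called HOX genes became 1 when every artery had to hold at least 10 counts, which removed Hoxb6 and Hoxd9 from testing, and 1 (Hoxd9, FDR 0.0187) in edgeR's test against a fold change of 2. Leaving out 1 artery gave 2 to 4. Hoxb6 and Hoxd9 were called in all 8 such fits and Hoxd4 in 4, and Hoxb7 was added without control 4. HOX genes at FDR under 0.05 with no fold limit went from 3 to 5 with DESeq2, to 6 with library totals only, to 5 without control 4 and injured 3 together, and to 2 to 5 with 1 artery left out. The share of all genes at FDR alone in these settings is not given here, so these counts are a description only. Library totals moved the median log2 fold change of all genes by 0.175 and added Hoxb5 (1.03, FDR 0.0319). The 9 called pathway genes became 14 with DESeq2, 4 in the test against a fold change of 2, and 21 without control 4 and injured 3. They became 6 with the replicate block, which lost Dlx2 (FDR 0.0640), Twist2 (FDR 0.0962) and Tbx15 (FDR 0.109). With 1 artery left out there were 6 to 18, 18 being without control 4. Over all genes tested, 10.9% were called in the main fit and 13.1% with DESeq2, and 12.3% were called higher without control 4. Shares of all genes called in the other settings are not given here. The counts of called HOX and pathway genes across settings are therefore a description only. Hoxb2 ran from -0.02 (without control 4) to 0.26 and Hoxc4 from -3.03 to 4.40 (without control 4) when 1 artery was left out. With the replicate number as a replicate block, HOX calls were 3 (Hoxb6 2.33, Hoxd4 1.06 and Hoxd9 3.02), and Hoxc4 turned to 2.29 (edgeR FDR 0.616). The cause of these shifts was not tested. Hoxb6 and Hoxd9 stood near the depth limit in control arteries, so their fold changes are the least precise of the calls.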

Other observations

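The genes that flank the HOX clusters were read from the same fit, after the data had been seen. Of the 24 nearest named protein-coding genes outside the 4 clusters in GRCr8, 3 on each side, 13 were tested and 0 were called in edgeR, with 3 at an unadjusted p under 0.05, against 10.9% and 31.1% of all genes tested, and DESeq2 called 0 of the 16 it tested. The log2 fold change was positive in 5 of the 13. Hibadh, a valine catabolism enzyme beside HOXA, had -0.79 with an edgeR FDR of 0.00308 and did not pass the fold threshold. Skap1, a T cell adaptor beside HOXB, had 1.71 with an edgeR FDR of 0.0598.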
